A study of Mus musculus with 10 samples.

Results

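The 8 genes described here, Stxbp4, Abca4, Nek3, Lrp2bp, Calr3, Hsbp1l1, Casr and Apool, were chosen by their log2 fold change: each has a low level in muscle that overexpresses Zfp407. They were found by name in a count table of 15883 genes, and all 8 were among the 13338 genes that passed the filter on low counts and were tested. The table covers RNA-seq of the biceps femoris, a hindlimb muscle, with 5 libraries of Zfp407 transgenic mice (TG) and 5 libraries of wild-type mice (WT). All mice were C57BL/6J males of 5 weeks on normal chow that had been fasted for 16 hours, so the fast is shared by both groups. The promoter that drives the transgene, and whether the transgenic mice descend from more than a single founder, are not stated by the labels or files. Since the table's columns carry a genotype and a number and no animal, each library goes by those, as in TG library 1. The series describes separate mice, 5 in each group.

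Zfp407 is a zinc finger protein that was linked to insulin-stimulated glucose uptake and to transcription of the glucose transporter GLUT4 in cultured fat cells. Skeletal muscle takes up much of the glucose of a meal, and does so by moving GLUT4-bearing vesicles to the cell surface, where SNARE proteins dock and fuse them. The 8 genes do not form a pathway. Stxbp4 belongs to the docking step, Casr is a cell-surface receptor, Lrp2bp is an adaptor, Abca4 is a membrane transporter, Nek3 is a kinase, Calr3 and Hsbp1l1 belong to families of chaperones and their regulators, and Apool is a protein of the mitochondrial inner membrane.

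The libraries held 15162400 to 19047834 counts in TG and 13530367 to 17814900 counts in WT. The unit of level is CPM, the count of a gene divided by the size of its library, after TMM scaling, which evens out differences in library composition. Zfp407 itself reached 581, 317, 409, 616 and 520 CPM in TG libraries 1 to 5, against 20.95, 25.7, 22.6, 22.3 and 23.2 CPM in WT libraries 1 to 5, so its level fits the genotype labels. Together, 3 rows (Lars2, Gm15564 and Gm15662) made up 9.62% to 17.3% of a TG library and 14.3% to 33.9% of a WT library. WT libraries 1 and 2 stood apart in this, with 33.9% and 29.3%, and results are therefore also given without them. The 10 skeletal muscle markers took 8.27% to 12.3% of the counts in TG and 7.05% to 10.9% in WT, and none of them passed the test in either direction. Hepatocyte markers took 0.0433% to 0.454% of the counts in TG, with the most in TG library 5, against 0.0152% to 0.0223% in WT, and 11 of 13 tested were higher. Leukocyte markers took 0.0137% to 0.0385% of the counts in TG and 0.0101% to 0.0178% in WT, with 1 of 8 tested higher. Nerve and Schwann cell markers took 0.00206% to 0.00952% in TG and 0.00174% to 0.0232% in WT, with the most in WT library 5. Their median log2 fold change was -0.54, and none of 4 tested passed. No adipocyte, endothelium, or tendon and fibroblast marker passed in either direction. The part of these transcripts in the results below was not tested. In whole muscle, fewer cells of a type and less RNA per cell cannot be told apart.

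Because low values in TG chose the 8 genes, their difference between the groups is given as a description with no test. Their fitted log2 fold changes, TG over WT, ran from -2.22 to -1.17 with a median of -1.68, where the median of all genes tested was 0.003. The level in TG was 21.5% to 44.3% of that in WT. All 8 passed an adjusted p of 0.05 in edgeR's quasi-likelihood test, as 5.33% of all genes tested did in either direction, 4.28% with a higher and 1.05% with a lower level in TG. In 7 of the 8, every TG library lay below every WT library, which held for 2.9% of all genes tested. Neither count is evidence about the genes, since the same contrast chose them.

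**Figure D1:**
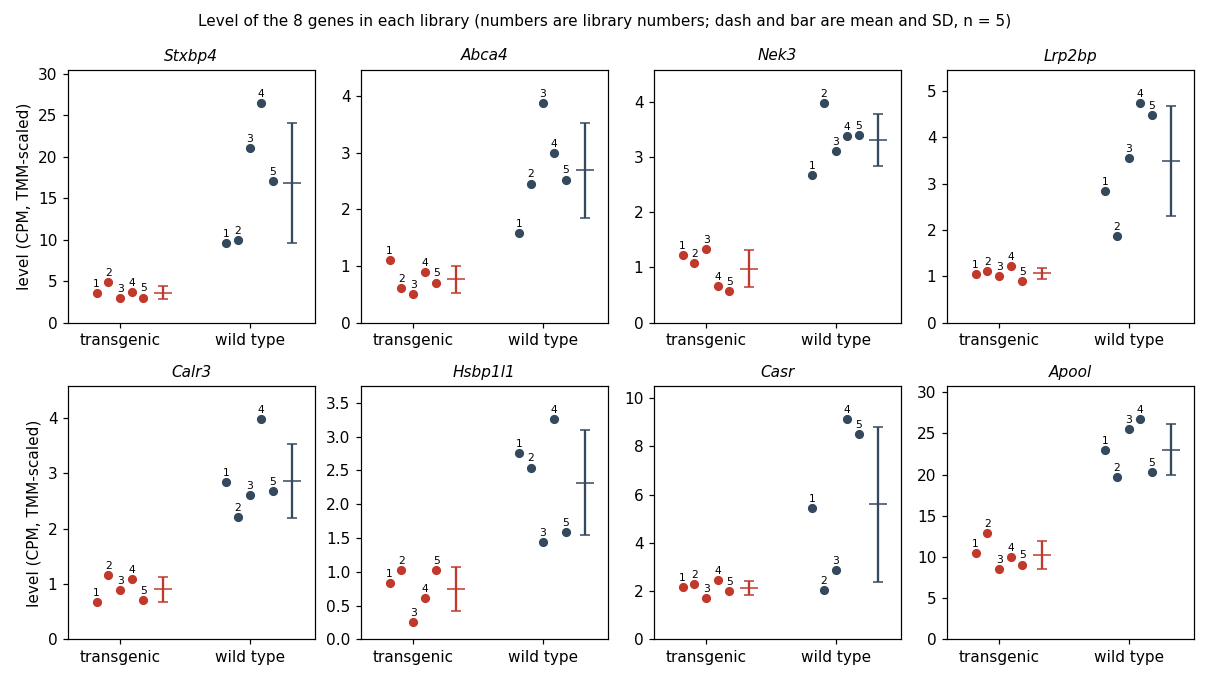
Level of each of the 8 genes in CPM (TMM-scaled, linear axis from 0) in the 5 TG and the 5 WT libraries, with points numbered by library and with the mean and SD beside each group. The groups are apart in 7 panels, and in the Casr panel WT library 2 at 2.03 CPM lies among the TG libraries at 1.71 to 2.46 CPM.

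Stxbp4, known as Synip, binds syntaxin 4 on the cell surface and leaves it when insulin signals, which lets GLUT4 vesicles dock. The gene lies on chromosome 11 from 90476492 to 90638084 on the minus strand (GRCm38). It had 3.56, 4.89, 2.97, 3.64 and 3.02 CPM in TG libraries 1 to 5, against 9.61, 9.91, 21.1, 26.5 and 17.1 CPM in WT libraries 1 to 5. The TG libraries were close together and all below the WT libraries, and WT libraries 1 and 2 were the lowest of their group. Stxbp4 averaged 3.62 ± 0.773 CPM in TG and 16.9 ± 7.29 CPM in WT (SD, n = 5 each), a log2 fold change of -2.22 ± 0.28 (SE). It was the lowest of all 12181 genes with a mean count of at least 20. Without WT libraries 1 and 2 the log2 fold change was -2.56. The SD in log2 CPM was 0.28 in TG and 0.65 in WT. Pooled over the groups it was 0.50, more than in 94.5% of 4672 genes whose mean count lay within a factor of 2. The pseudogene Gm11512, which lies within Stxbp4, had 1 to 8 counts in TG and 3 to 7 counts in WT, where Stxbp4 had 47 to 105 counts in TG and 117 to 408 counts in WT.

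Stxbp4 starts 88 bp from the start of Cox11, a copper chaperone of cytochrome c oxidase that is transcribed in the opposite direction. The stretch between the exons of both genes is shown since it is the shortest run of DNA that a member shares with a gene that moved the other way. It comes from the RefSeq promoter table (GRCm38.p6, chr11:90638109-90638172, minus strand, 5′ to 3′ toward Stxbp4), and capitals mark a repeated palindrome.
Stxbp4: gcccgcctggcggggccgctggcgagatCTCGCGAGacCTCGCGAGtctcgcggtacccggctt
The stretch has 64 bases, 75.0% G or C and 11 CpG. The palindrome CTCGCGAG, which reads the same on both strands and was picked after the sequence had been seen, occurs 2 times in it. Of 32851 RefSeq promoter windows, which run from 250 bases before to 50 bases after a start, 0.919% hold CTCGCGAG. Among the 7 members with a window used here, Stxbp4 alone held it.

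Casr encodes the calcium-sensing receptor, a G protein-coupled receptor best known from the parathyroid gland, where it sets hormone release by blood calcium. It lies on chromosome 16 from 36493696 to 36562141 on the minus strand. Casr had 2.17, 2.28, 1.71, 2.46 and 1.99 CPM in TG libraries 1 to 5, against 5.43, 2.03, 2.89, 9.11 and 8.52 CPM in WT libraries 1 to 5. The groups overlapped, since WT library 2 was below 3 of the TG libraries. Casr averaged 2.12 ± 0.286 CPM in TG and 5.60 ± 3.20 CPM in WT (SD, n = 5 each). The fitted log2 fold change was -1.39 ± 0.36 (SE), and -1.67 without WT libraries 1 and 2. The coefficient of variation was 13.5% in TG and 57.2% in WT, and the SD in log2 CPM of 0.67 exceeded that of 93.0% of 3754 genes of like level. The parathyroid markers Pth, Gcm2 and Chga were not analysed here. The bases before its start are shown because they held none of the motifs searched and only 1 CpG (RefSeq, GRCm38.p6, chr16:36562142-36562261, minus strand, 5′ to 3′).
Casr: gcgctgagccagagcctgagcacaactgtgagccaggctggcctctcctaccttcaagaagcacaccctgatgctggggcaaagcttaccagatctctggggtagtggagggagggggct

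Abca4 encodes a transporter of retinoid lipids across the membranes of photoreceptors. On chromosome 3 the gene runs from 122044443 to 122180123 on the plus strand. Abca4 had 1.11, 0.605, 0.506, 0.898 and 0.708 CPM in TG libraries 1 to 5, against 1.58, 2.46, 3.88, 2.99 and 2.53 CPM in WT libraries 1 to 5. Every TG library was below every WT library, the closest being TG library 1 and WT library 1. The mean was 0.766 ± 0.242 CPM in TG and 2.69 ± 0.843 CPM in WT (SD, n = 5 each). The fitted log2 fold change was -1.81 ± 0.28 (SE), and -2.02 without WT libraries 1 and 2. These levels rest on few reads, 8 to 20 counts per TG library and 20 to 70 counts per WT library. Per kilobase of exon the level was 0.0637 CPM in TG and 0.224 CPM in WT, and in WT it exceeded that of only 6.33% of genes tested. The photoreceptor markers Sag, Gnat1 and Pde6b together took at most 0.000261% of the counts in a TG library and 0.000225% in a WT library. The sequence before the start is shown for a match to TATAAA, in capitals (RefSeq, GRCm38.p6, chr3:122044323-122044442, plus strand, 5′ to 3′). The match lies near the 5′ end of the stretch, away from the start, and its use as a TATA box was not tested.
Abca4: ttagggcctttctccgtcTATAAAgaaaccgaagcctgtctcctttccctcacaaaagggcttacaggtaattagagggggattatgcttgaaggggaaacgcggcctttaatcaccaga

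Apool encodes a lipid-binding subunit of MICOS, the complex that holds the cristae of mitochondria in shape. It lies on chromosome X from 112311334 to 112372755 on the plus strand. Apool had 10.5, 12.9, 8.48, 10.02 and 9.07 CPM in TG libraries 1 to 5, against 22.9, 19.7, 25.5, 26.7 and 20.3 CPM in WT libraries 1 to 5. The groups were apart, and Apool had the smallest difference of the 8 but also the smallest error. Its mean was 10.2 ± 1.69 CPM in TG and 23.01 ± 3.10 CPM in WT (SD, n = 5 each), and its log2 fold change was -1.17 ± 0.14 (SE), against -1.24 without WT libraries 1 and 2. It was the most abundant member per kilobase of exon, with 2.92 CPM in TG and 6.60 CPM in WT, more in WT than 78.9% of genes tested. The bases before its start are shown for matches to CCAAT and GGGCGG, in capitals (RefSeq, GRCm38.p6, chrX:112311214-112311333, plus strand, 5′ to 3′). Their use as a CCAAT box and a GC box was not tested.
Apool: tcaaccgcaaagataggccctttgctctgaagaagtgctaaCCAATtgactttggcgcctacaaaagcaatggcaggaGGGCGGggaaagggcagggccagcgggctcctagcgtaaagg

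Motifs were counted on both strands in the promoter windows of 7 members, and Hsbp1l1 was not included. TATAAA occurred in Abca4 and Nek3 and in 13.6% of all 32851 windows. CCAAT occurred in Apool, Calr3 and Lrp2bp and in 37.4% of all windows, and GGGCGG in Apool and Stxbp4 and in 35.7%. TGACG, part of the cAMP response element, occurred in Apool and Calr3 and in 20.8% of all windows, and AGGTCA, a nuclear receptor element, in Calr3 and in 16.3%. No member's window held CACGTG, found in 7.15% of all windows, or CCGGAAG, found in 8.86%. No motif searched was present in more than 3 members, and G and C made up 38.7% to 68.3% of the windows, with 3 of 7 above the median of 52.7%. The RefSeq starts of Nek3 and Lrp2bp lie 3941 bp and 11299 bp from their GENCODE starts, so their windows describe an inner start.

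Nek3 encodes a NIMA-related kinase, a family named after a fungal regulator of mitosis, and acts in prolactin receptor signalling in cultured cells. The gene spans chromosome 8 from 22128283 to 22166435 on the minus strand. Nek3 had 1.22, 1.07, 1.33, 0.662 and 0.579 CPM in TG libraries 1 to 5, against 2.68, 3.98, 3.11, 3.38 and 3.39 CPM in WT libraries 1 to 5. The lowest WT library was above the highest TG library, and TG libraries 4 and 5 were below the rest of their group. It averaged 0.973 ± 0.336 CPM in TG and 3.31 ± 0.475 CPM in WT (SD, n = 5 each). The log2 fold change of Nek3 was -1.76 ± 0.24 (SE), and -1.74 without WT libraries 1 and 2.

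Lrp2bp encodes a protein that binds the cytoplasmic tail of megalin, the endocytic receptor Lrp2. On chromosome 8 it runs from 45999303 to 46029477 on the plus strand. Lrp2bp had 1.06, 1.12, 1.01, 1.23 and 0.901 CPM in TG libraries 1 to 5, against 2.84, 1.86, 3.55, 4.75 and 4.48 CPM in WT libraries 1 to 5. The TG libraries were nearly level with each other and all below WT library 2, the lowest of its group. The mean of Lrp2bp was 1.06 ± 0.122 CPM in TG and 3.50 ± 1.19 CPM in WT (SD, n = 5 each), its log2 fold change being -1.71 ± 0.25 (SE), against -1.98 without WT libraries 1 and 2. Lrp2bp overlaps Ankrd37 on the other strand, whose own row had 4 to 16 counts in TG and 4 to 14 counts in WT, and reads of the shared part cannot be told apart without strand.

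Calr3 encodes a calreticulin, a lectin chaperone of the endoplasmic reticulum, that is known from the testis. Its position is chromosome 8 from 72424176 to 72443870 on the minus strand. Calr3 had 0.667, 1.16, 0.886, 1.09 and 0.708 CPM in TG libraries 1 to 5, against 2.84, 2.202, 2.61, 3.97 and 2.67 CPM in WT libraries 1 to 5. The groups were apart, with WT library 4 the highest. Calr3 averaged 0.902 ± 0.221 CPM in TG and 2.86 ± 0.664 CPM in WT (SD, n = 5 each), and its log2 fold change was -1.64 ± 0.23 (SE), against -1.74 without WT libraries 1 and 2. The male germ cell markers listed (Prm1, Prm2, Tnp1, Tnp2, Acrv1 and Ddx4) were not analysed here. Nek3, Lrp2bp and Calr3 share chromosome 8, where 703 of 13308 genes with coordinates, 5.28%, lie, but are megabases apart.

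Hsbp1l1 encodes a relative of Hsbp1, a small protein that binds heat shock factor 1. It lies on chromosome 18 from 80229758 to 80247102 on the minus strand, 3881 kb from the endogenous Zfp407 gene. Hsbp1l1 had 0.834, 1.02, 0.253, 0.614 and 1.03 CPM in TG libraries 1 to 5, against 2.76, 2.54, 1.44, 3.25 and 1.59 CPM in WT libraries 1 to 5. The groups were apart, but TG library 3 with 4 counts was far below the rest of its group. The mean was 0.751 ± 0.326 CPM in TG and 2.32 ± 0.777 CPM in WT (SD, n = 5 each), and the log2 fold change of Hsbp1l1 was -1.60 ± 0.34 (SE). Without WT libraries 1 and 2 this value was -1.46, and over each library left out in turn it ran from -1.78 to -1.40.

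**Figure D2:**
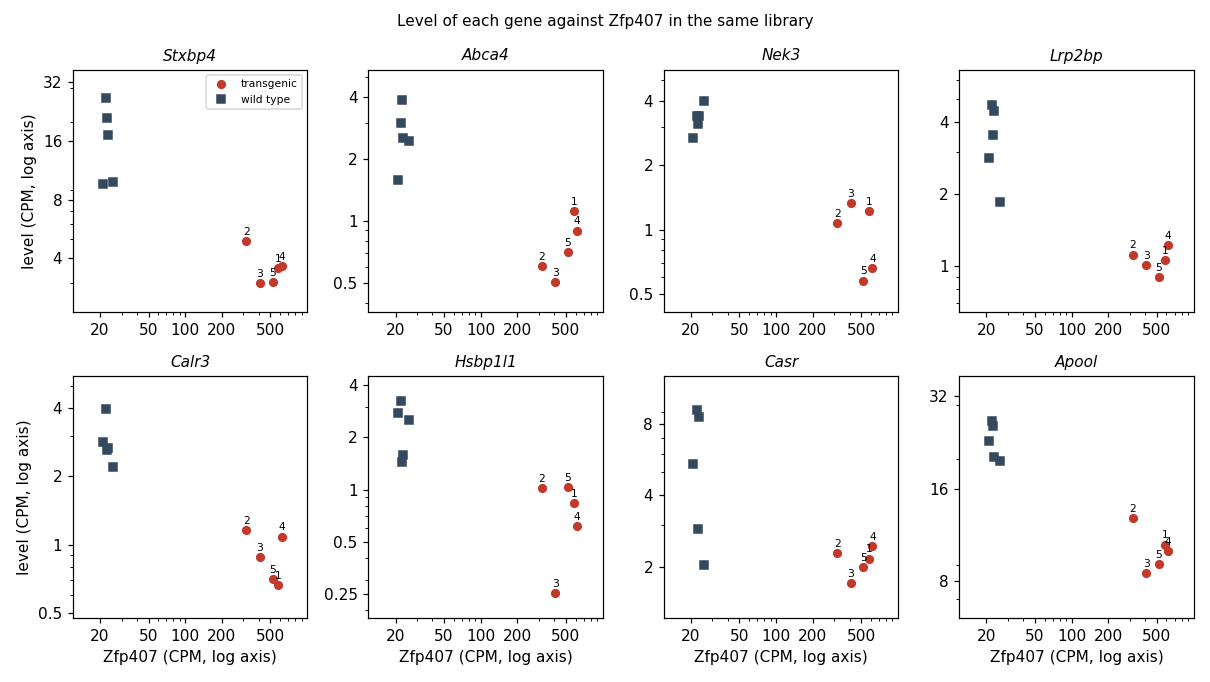
Level of each of the 8 genes (CPM, log axis) against the level of Zfp407 in the same library (CPM, log axis), with TG libraries numbered. Zfp407 spans 317 to 616 CPM in TG and 20.95 to 25.7 CPM in WT, and TG library 4, which has the most Zfp407, is the lowest of its group for none of the 8 genes.

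The 8 genes were set beside Zfp407 library by library. Zfp407 differed 1.94-fold between the lowest and highest TG library and 1.23-fold between those of WT, and the groups form separate clusters. With 5 libraries in each group no correlation was computed, and the relation was not tested. From least to most Zfp407, the TG libraries stood in the order 2, 3, 5, 1 and 4. In that order Stxbp4 had 4.89, 2.97, 3.02, 3.56 and 3.64 CPM, so the library with least Zfp407 had most Stxbp4, and the rest did not go on falling. Apool, in the same order, had 12.9, 8.48, 9.07, 10.5 and 10.02 CPM, the same shape. Calr3 had 1.16, 0.886, 0.708, 0.667 and 1.09 CPM, falling over the first 4 libraries and high again in the last. TG library 4, with most Zfp407, was the highest of its group for Lrp2bp at 1.23 CPM and for Casr at 2.46 CPM. TG library 3, next to lowest in Zfp407, was the lowest for Stxbp4, Abca4, Hsbp1l1, Casr and Apool. None of the 8 genes fell step by step with Zfp407 among the TG libraries.

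The highest and lowest WT libraries of each gene were also noted. The matching shares over all genes tested were not computed, so these counts do not set the 8 genes apart. WT library 4 was the highest for 6 of the 8 genes, but Abca4 was highest in library 3 and Nek3 in library 2. Hsbp1l1 was lowest in library 3. WT library 1 or 2 was the lowest for 7 of the 8, with Stxbp4, Abca4 and Nek3 lowest in library 1, and Lrp2bp, Calr3, Casr and Apool lowest in library 2. These are the libraries with the largest share of counts in Lars2, Gm15564 and Gm15662, and the part of that share in the members' levels was not tested. Without both libraries the log2 fold changes were larger in size for 6 of the 8 genes, and smaller for Nek3 and Hsbp1l1.

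**Figure D3:**
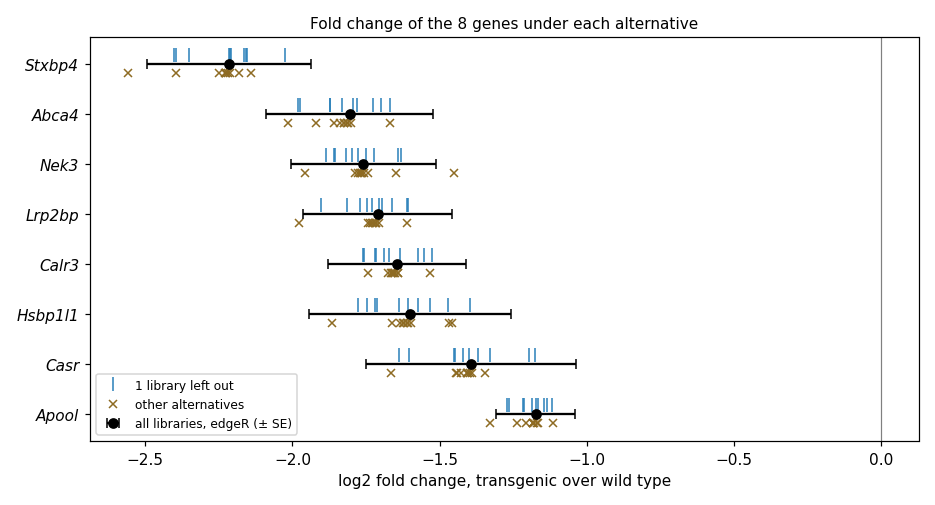
Log2 fold change (TG over WT) of each of the 8 genes with all libraries (black, with SE), with 1 library left out (blue) and under the other alternatives (brown). Every value lies below 0, which the choice of the genes by this contrast makes likely, and Casr runs from -1.64 to -1.18 with a library left out.

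The 8 genes are among the most reduced but do not make up the top of the order. Of the 12181 genes with a mean count of at least 20, 21 had a log2 fold change at or below that of Apool, and 13 of these were not members. The 5 lowest of the 13 were Ndufa1 at -1.97 ± 0.13, Plin3 at -1.64 ± 0.14, Fgfbp1 at -1.43 ± 0.47, Cdkn1c at -1.42 ± 0.21 and Htra4 at -1.37 ± 0.52 (log2 fold change ± SE). Ndufa1 is a subunit of respiratory complex I, Plin3 coats lipid droplets, and Cdkn1c is an imprinted inhibitor of the cell cycle. Of the 13, 10 passed an edgeR adjusted p of 0.05. Among those named, Fgfbp1 (edgeR adjusted p = 0.106) and Htra4 (edgeR adjusted p = 0.173) did not. Apool at -1.17 was just inside, and Cox15, an enzyme of heme A synthesis, was just outside at -1.16 ± 0.10. A further 6 genes with a mean count under 20 lay at or below Apool, 2 of them past the adjusted p.

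Profiles across the 10 libraries were compared by the root mean square difference of log2 CPM, each gene being centred on its own WT mean. Among genes outside the 8, Apool was most like Cbr4, a carbonyl reductase of mitochondrial fatty acid synthesis, at 0.132, and Klhl33, at 0.141, where a flat profile was 0.849 away. Nek3 was most like Plin3 at 0.228 and Ndufa1 at 0.331. Stxbp4 was also most like Ndufa1 and Plin3, though at a distance of 0.468 and 0.579. Outside the 8, Calr3 was closest to Cbr4 at 0.301 and Plin3 at 0.309, and Lrp2bp to Asb15, a muscle protein with ankyrin repeats and a SOCS box, at 0.339 and Trp63 at 0.372. Also outside the 8, Casr was closest to Asb15 at 0.446 and 2310065F04Rik at 0.453, Hsbp1l1 to Cbr4 at 0.446 and C920021L13Rik at 0.448, and Abca4 to Ngfr at 0.440 and Plin3 at 0.468. Within the 8, the closest pair was Lrp2bp and Calr3 at 0.275, closer than either was to a gene outside, and Abca4 was 0.430 from Lrp2bp, also closer than to Ngfr. The measure takes in the difference between the groups, so likeness follows in part from how the 8 genes were chosen.

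**Figure D4:**
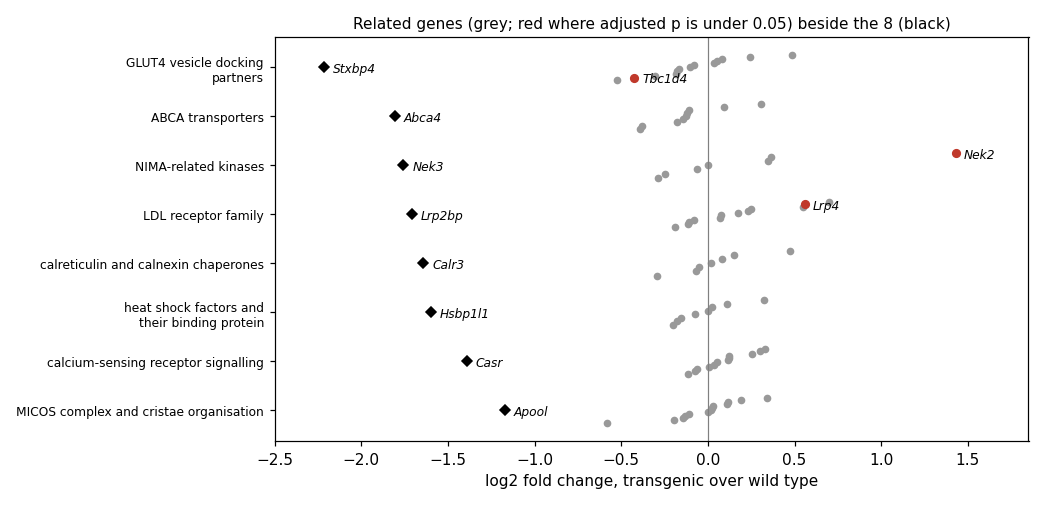
Log2 fold change (TG over WT) of the 81 related genes tested, one row per list, with the member the list belongs to as a black diamond. Related genes lie between -0.58 and 1.43, and only Tbc1d4, Nek2 and Lrp4 (red) pass an edgeR adjusted p of 0.05.

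Genes that work with the members or belong to their families were tested in lists. Of 93 genes listed, 81 were tested, with a median log2 fold change of 0.008. Past an edgeR adjusted p of 0.05, 2 of 81 were higher and 1 of 81 was lower in TG. The background over all genes tested was 4.28% higher and 1.05% lower, and these counts are too small to set the partners apart from it. At an unadjusted p under 0.05 there were 11. Without WT libraries 1 and 2, 1 was higher and 0 were lower.

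Around Stxbp4, 13 genes of GLUT4 vesicle docking were tested, with 0 higher, 1 lower and a median of -0.10. Tbc1d4, or AS160, which restrains GLUT4 vesicles until Akt phosphorylates it, was the gene that fell. It averaged 34.7 ± 4.42 CPM in TG and 46.6 ± 1.65 CPM in WT (SD, n = 5 each), and its log2 fold change was -0.42 ± 0.11 (SE) at an edgeR adjusted p of 0.0325, with no overlap between the groups. This call was lost in 10 of 20 alternatives, among them each WT library left out in turn and TG library 2, 4 or 5 left out, with an edgeR adjusted p of up to 0.0938 over single libraries left out. Stx4a, the binding partner of Stxbp4, had 9.97 ± 0.959 CPM in TG and 11.3 ± 1.01 CPM in WT (edgeR adjusted p = 0.416). Slc2a4, which encodes GLUT4, had 253 ± 71.1 CPM in TG and 214 ± 22.4 CPM in WT (edgeR adjusted p = 0.496). Stx4a and Slc2a4 are named as the direct partner and the cargo of this step, chosen with earlier results known.

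Among the NIMA-related kinases 7 were tested, with 1 higher, 0 lower and a median of -0.001. Nek2, a kinase of the centrosome, averaged 1.78 ± 0.519 CPM in TG and 0.649 ± 0.0793 CPM in WT (SD, n = 5 each), and its log2 fold change was 1.43 ± 0.26 (SE) at an edgeR adjusted p of 0.00671. Its TG libraries were all above its WT libraries, the reverse of Nek3. Nek2 rested on 162 counts in TG and 47 counts in WT, and it missed the threshold without WT libraries 1 and 2 (edgeR adjusted p = 0.0627).

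In the LDL receptor family, the receptors to which megalin belongs, 12 were tested, with 1 higher, 0 lower and a median of 0.12. Lrp4, the agrin receptor of the neuromuscular junction, averaged 15.0 ± 1.27 CPM in TG and 10.1 ± 1.27 CPM in WT (SD, n = 5 each), and its log2 fold change was 0.56 ± 0.11 (SE) at an edgeR adjusted p of 0.0112, with no overlap. The edgeR adjusted p of Lrp4 was 0.0522 without WT library 3 and 0.0735 without TG libraries 4 and 5. Megalin itself, Lrp2, was not analysed here.

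In the remaining lists no gene passed. The ABCA transporters had a median of -0.13 over 9 tested, and the smallest p belonged to Abca5 at -0.38 (edgeR adjusted p = 0.120) and Abca7 at -0.39 (edgeR adjusted p = 0.146). The calreticulin and calnexin chaperones had a median of 0.02 over 7 tested, led by Tapbp at 0.48 (edgeR adjusted p = 0.113) and Uggt1 at -0.29 (edgeR adjusted p = 0.270). Calr, the widely expressed relative of Calr3, had 93.6 ± 12.4 CPM in TG and 84.4 ± 6.73 CPM in WT. The heat shock factor list had a median of -0.04 over 8 tested, led by Dnajb1 at 0.32 (edgeR adjusted p = 0.347) and Hsbp1 at -0.16 (edgeR adjusted p = 0.507). The calcium-sensing receptor list had a median of 0.08 over 12 tested, led by Arrb2 at 0.33 (edgeR adjusted p = 0.371) and Plcb3 at 0.30 (edgeR adjusted p = 0.385). The MICOS list had a median of 0.02 over 13 tested, led by Phb at 0.34 (edgeR adjusted p = 0.241) and Immt, the scaffold of the complex, at -0.19 (edgeR adjusted p = 0.316). Apoo, the closest relative of Apool in the complex, had 33.2 ± 2.1 CPM in TG and 33.1 ± 3.76 CPM in WT. Calr and Apoo are named as relatives, with earlier results known.

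**Figure D5:**
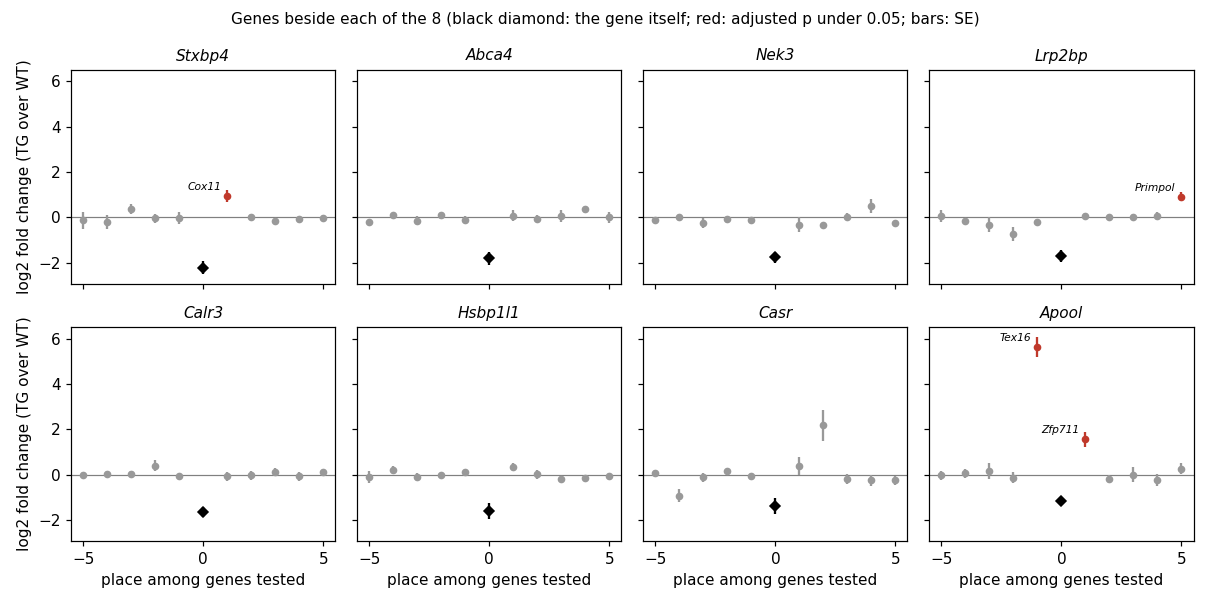
Log2 fold change (TG over WT, with SE) of the 5 nearest genes tested on each side of each member, in order along the chromosome, with the member as a black diamond at place 0. Of the 80 neighbours 4 pass an edgeR adjusted p of 0.05 (red), all of them higher in TG, and most of the rest lie near 0.

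Position was not used to choose the 8 genes, so their neighbours were tested. Of the 5 nearest genes tested on each side of each member, 80 in all, 4 were higher and 0 lower past an edgeR adjusted p of 0.05. The background was 4.28% higher and 1.05% lower, and these counts do not set the neighbours apart from it. The median of the neighbours was -0.03. At an unadjusted p under 0.05 there were 9, and DESeq2 called 1 neighbour lower, Gm15564. Gm15564 starts 579 kb from Casr and is among the dominant rows, with Lars2 and Gm15662. It was highest in WT libraries 1 and 2, at 31882 and 24246 CPM. With 10 genes on each side, 160 in all, 10 were higher and 0 lower. Without WT libraries 1 and 2, 1 neighbour was higher.

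Cox11, which shares its start region with Stxbp4, had 2.06, 3.68, 4.56, 4.16 and 3.22 CPM in TG libraries 1 to 5, against 2.13, 1.86, 1.17, 2.41 and 1.66 CPM in WT libraries 1 to 5. TG library 1 lay among the WT libraries and the rest of TG lay above them. The log2 fold change of Cox11 was 0.94 ± 0.25 (SE; edgeR adjusted p = 0.0475). It missed the threshold in 14 of 20 alternatives, among them each WT library and TG library 2, 3, 4 or 5 left out, with an edgeR adjusted p of up to 0.132 over single libraries left out. Without WT libraries 1 and 2 it was 0.129 (edgeR adjusted p), and without TG libraries 4 and 5 it was 0.157. Cox11 also overlaps Tom1l1 on the other strand, which had a log2 fold change of 0.01 (edgeR adjusted p = 0.966). Calr3 has the other close divergent start, 9 bp from 1700030K09Rik, whose log2 fold change was -0.07 ± 0.19 (edgeR adjusted p = 0.892). A divergent protein-coding start within 1000 bp was present in 2 of the 8 genes and in 9.89% of 13308 genes tested with coordinates.

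The nearest gene tested on each side of Apool was higher in TG. Tex16, a gene named for its expression in the testis, had 230 counts over the TG libraries and 3 over the WT libraries, or 59.8 times as much after scaling (exact 95% interval 20.2 to 292, for counting error alone). It had 2.95, 2.24, 1.71, 3.31 and 2.06 CPM in TG libraries 1 to 5, against 0.0788, 0, 0, 0.0651 and 0.0722 CPM in WT libraries 1 to 5 (edgeR adjusted p = 1.78e-05). The groups were far apart, and the call held in all 20 alternatives. Tex16 starts 300.3 kb before Apool. Zfp711, a zinc finger gene that starts 289 kb beyond it, averaged 2.75 ± 1.05 CPM in TG and 0.922 ± 0.315 CPM in WT (SD, n = 5 each), and its log2 fold change was 1.56 ± 0.33 (SE) at an edgeR adjusted p of 0.0137. Its groups overlapped, TG library 3 being at 1.202 CPM. The edgeR adjusted p of Zfp711 was 0.0916 without TG libraries 4 and 5 and 0.101 without WT libraries 1 and 2.

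Primpol, a primase and polymerase that restarts stalled replication, was the last of these, 618 kb from Lrp2bp. It averaged 3.30 ± 0.566 CPM in TG and 1.76 ± 0.336 CPM in WT (SD, n = 5 each), and its log2 fold change was 0.91 ± 0.20 (SE) at an edgeR adjusted p of 0.0161, with no overlap. The edgeR adjusted p of Primpol was 0.0618 without WT library 3, 0.0806 without WT libraries 1 and 2, 0.112 without TG libraries 1 and 2 and 0.0520 without TG libraries 4 and 5. The genes between it and Lrp2bp that were tested did not pass the test. No neighbour tested of Abca4, Nek3, Calr3, Hsbp1l1 or Casr passed an edgeR adjusted p of 0.05.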

How the data were processed

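RNA of 10 mouse muscles was measured. The deposited table holds whole-number counts per gene, not normalized. Beside them are the authors' own results per gene: a mean signal, a log2 fold change with its error, a statistic (score) and p-values. The submitters' processing notes name TopHat2 2.1, Bowtie2 2.2.6, SAMtools 1.2, HTSeq 0.6.1, DESeq2 1.10 and GRCm38.p4. How reads were counted, with which strand setting and on which gene models, is not given in the sources used here; overlapping genes may share reads.

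Libraries were grouped by column name. After filterByExpr and TMM scaling, edgeR 4.0.16 in R 4.3.3 tested genotype with the quasi-likelihood test and no covariate. P-values were adjusted by Benjamini-Hochberg over 13338 genes. The test was also run on simulated counts with set changes. Those libraries otherwise shared the same composition, unlike the libraries here, so the run does not check the test under such differences. Each standard error is the size of the fold change over the root of F. Log2 CPM used a prior count of 2. CPM per kilobase used exonic length. Coordinates are of GENCODE M21 (GRCm38), matched for 99.8% of genes tested, and promoters of RefSeq (GRCm38.p6). Partner lists hold families and binding partners of the members.

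The members, partner lists and naming rule were chosen with earlier results of these data known. The rule names the members, Zfp407, partners and neighbours past the threshold, up to 2 partners with the smallest p in a list with none, the 2 non-members most like each member, and the 5 lowest non-members at or below Apool. Alternatives were DESeq2 size factors, DESeq2 1.42.0, other filters, a prior count, the authors' fold changes, 3 dominant rows left out, and libraries left out. Intervals cover counting error only.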

Additional observations from a re-analysis of the deposited data

How the results depend on the processing

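All 160 values of the 8 members' log2 fold changes over 20 alternatives were below 0 and moved by less than 1 within-group SD. Neither is a test of the members. The same contrast chose them, and leaving out 1 of 5 libraries can move a group mean by only part of its SD. The members' adjusted p was not followed over the alternatives. With a library left out, Stxbp4 ran from -2.40 to -2.02, Abca4 from -1.98 to -1.67, Nek3 from -1.89 to -1.63, Lrp2bp from -1.90 to -1.61, Calr3 from -1.76 to -1.53, Casr from -1.64 to -1.18 and Apool from -1.27 to -1.12. Of all genes tested, 571 were higher and 140 lower. With a library left out, 342 (WT library 3) to 764 (TG library 3) were higher and 92 to 352 (TG library 3) lower. DESeq2 called 315 lower, and the authors' deposited table holds 876 higher and 282 lower. Without TG libraries 4 and 5, 56 were lower. Without WT libraries 1 and 2, an alternative chosen after seeing the data, 224 were higher and 75 lower. Of the partner genes, 1 to 2 were higher and 0 to 2 lower with a library left out, Abca7 joining without TG library 3. Without TG libraries 4 and 5, 1 partner was higher and 0 were lower, as without WT libraries 1 and 2. Of the neighbours, 2 to 4 were higher with a library left out, 1 without TG libraries 4 and 5, 1 without WT libraries 1 and 2, and 10 with 10 genes on each side. DESeq2 and the authors' deposited table each called 1 neighbour lower. The cause of these shifts was not tested, though settings with fewer libraries have fewer samples. No paired analysis was possible because the labels number no replicates and nothing ties the column numbers of the groups to a shared litter, batch or day. Depth limits Abca4, Nek3, Lrp2bp, Calr3 and Hsbp1l1, which had 4 to 26 counts in TG libraries.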
